A study of Mus musculus with 2 samples.

Results

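Chemokine transcripts were followed through the cell types of the mouse glomerulus: the chemokines Cxcl13, Cxcl12, Cxcl1, Cxcl2, Cxcl16, Cx3cl1, Ccl2 and Ccl7, and Ackr3, which is not a chemokine but a receptor that binds Cxcl12. These 9 genes were taken by symbol from the 31058 features of the deposited matrices. Droplet-based single-cell RNA sequencing had been carried out on glomerular cells from the kidneys of 2 healthy C57Bl/6 mice, 1 titled female and 1 titled male, each sequenced as a single library. Both mice were Pax2.rtTA;TetO.Cre;R26.Confetti, were given doxycycline at 19 days of age and were killed at 30 days of age. In that genotype the Pax2 promoter drives a doxycycline-dependent activator, which switches on Cre and a multicolour reporter in Pax2-expressing cells, and both libraries carry it, so neither is an unmodified control.

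Chemokines are small secreted or membrane-anchored proteins that guide leukocytes through G protein-coupled receptors. Homeostatic chemokines such as Cxcl13 and Cxcl12 are made without injury and set the position of lymphocytes and progenitor cells, whereas inflammatory ones such as Cxcl1, Cxcl2, Ccl2 and Ccl7 are switched on within a short time of a stimulus and call in neutrophils or monocytes. In the glomerulus, Cxcl12 from podocytes is known as a signal to neighbouring endothelial and progenitor cells. Cxcl16 and Cx3cl1 are anchored in the membrane and are released by metalloproteases.

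The 2 libraries held 5233 and 4974 barcodes and 67648465 and 57841860 UMIs (molecule barcodes that count captured transcripts once each), in the order female and male title. After filtering, 4909 and 4442 cells were left, with medians of 10672 and 9616 UMIs, and 10 barcodes occurred in both libraries. Xist and Y-linked transcripts went against the titles: Xist stood at 0.682 CPM (UMIs of a gene per 1000000 UMIs of the cells summed) in the female library by title and at 1593 CPM in the male one, and 4 Y-linked genes at 214 and 0.0206 CPM. The libraries are therefore called by their labels, and no direction between them is a direction between sexes. Each title had 1 library, so there is no replicate check, no test between libraries or classes is given, and the 95% intervals cover counting error only, although UMIs of these genes were often concentrated in a few cells.

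Cells were clustered without the 9 genes, and clusters were named from marker genes. Podocyte-like cells (3458 in the library titled female, 3215 in the library titled male) carried 12 of 12 podocyte markers, mesangial-like cells (241 and 175) 11 of 11 mesangial markers, parietal epithelial-like cells (73 and 49) 9 of 9 and glomerular endothelial-like cells (112 and 89) 12 of 12. Arterial endothelial-like cells (84 and 83), led by Fbln2, Cd93 and Sox17, and immune-like cells (22 and 58), led by Lyz2, Tyrobp and Cd52, were smaller classes. Some cells of the other classes carried podocyte or mesangial transcripts in quantity. Clic3, a chloride intracellular channel, and Ptpro, a receptor tyrosine phosphatase, are podocyte genes. Cells of named classes other than the podocyte-like class with at least 5 UMIs of Clic3 and Ptpro added up are called mixed cells below. So are cells of named classes other than the podocyte-like and mesangial-like ones with at least 5 UMIs of the mesangial gene Itga8. This definition was chosen after seeing the data. They made up 30 of 241 and 6 of 175 mesangial-like cells, 5 of 73 and 1 of 49 parietal epithelial-like cells, 7 of 112 and 0 of 89 glomerular endothelial-like cells, 17 of 84 and 19 of 83 arterial endothelial-like cells, and 5 of 22 and 4 of 58 immune-like cells. Many of the levels that they move are given with and without them. Podocyte-like and unnamed cells were not screened for mixed cells, so podocyte-like values are the same under both settings.

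The genes lie on 5 chromosomes of the GRCm38 assembly. Cxcl1 (chr5:90891241-90893115) and Cxcl2 (chr5:90903871-90905938) are neighbours, with Cxcl13 (chr5:95956951-95961068) further along the same chromosome, and Ccl2 (chr11:82035571-82037453) and Ccl7 (chr11:82045712-82047525) are a second pair. Cxcl16 is at chr11:70453983-70459984 on the minus strand, Cxcl12 at chr6:117168535-117181367, Cx3cl1 at chr8:94772009-94782427 and Ackr3 at chr1:90203980-90216751. Cxcl16 overlaps Zmynd15 and Ccl2 overlaps Gm17268, both on the opposite strand, and Cxcl2 shares an exact stretch of 157 bases with its paralog Cxcl3, so their counts are uncertain to that extent. RefSeq's promoter table (GRCm38.p6) held 6 of the 9 genes. The 250 bases before the start are shown for the homeostatic Cxcl13 and Cxcl12, which had distinct cell sources, and for the neighbours Cxcl1 and Cxcl2, with capitals marking 1 motif searched on both strands: TATAAA in Cxcl13, GGGCGG (the GC box) in Cxcl12, and GGAATTTCC (a kappaB motif, bound by NF-kappaB factors) in Cxcl1 and Cxcl2.
Cxcl13 (chr5:95956689-95956938, plus strand): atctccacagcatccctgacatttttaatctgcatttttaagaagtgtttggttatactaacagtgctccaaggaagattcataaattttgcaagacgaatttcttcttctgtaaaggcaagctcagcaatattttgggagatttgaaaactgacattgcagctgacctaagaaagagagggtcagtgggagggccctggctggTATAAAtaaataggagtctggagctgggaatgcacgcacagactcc
Cxcl12 (chr6:117168285-117168534, plus strand): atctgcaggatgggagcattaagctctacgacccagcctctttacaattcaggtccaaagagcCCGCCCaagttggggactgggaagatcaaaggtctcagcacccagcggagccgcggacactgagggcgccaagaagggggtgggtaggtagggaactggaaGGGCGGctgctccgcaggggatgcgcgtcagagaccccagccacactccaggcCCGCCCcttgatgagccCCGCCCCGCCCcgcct
Cxcl1 (chr5:90890995-90891244, plus strand): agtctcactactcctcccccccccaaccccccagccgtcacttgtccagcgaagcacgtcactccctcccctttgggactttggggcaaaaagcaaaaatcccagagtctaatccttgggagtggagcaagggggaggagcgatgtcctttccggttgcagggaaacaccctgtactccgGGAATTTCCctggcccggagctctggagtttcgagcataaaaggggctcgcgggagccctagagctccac
Cxcl2 (chr5:90903649-90903898, plus strand): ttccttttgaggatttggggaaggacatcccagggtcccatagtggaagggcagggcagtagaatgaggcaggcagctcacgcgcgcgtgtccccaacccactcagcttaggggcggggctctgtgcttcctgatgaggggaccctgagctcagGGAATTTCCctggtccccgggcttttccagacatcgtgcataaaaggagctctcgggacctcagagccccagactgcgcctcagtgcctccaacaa
The GGAATTTCC letters were found in 0.289% of 32536 promoter windows of this length. They began 70 bases before the RefSeq start of Cxcl1 and 96 bases before that of Cxcl2, distances that do not hold for the gene coordinates above. TATAAA, found in 12.3% of the windows, began 46 bases before the RefSeq start of Cxcl13. GGGCGG, found in 33.0% of the windows, occurred 5 times in the Cxcl12 window. None of the 6 windows held TGANTCA, the AP-1 motif, which 6.73% of the windows held. These matches describe the letters only.

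**Figure D1:**
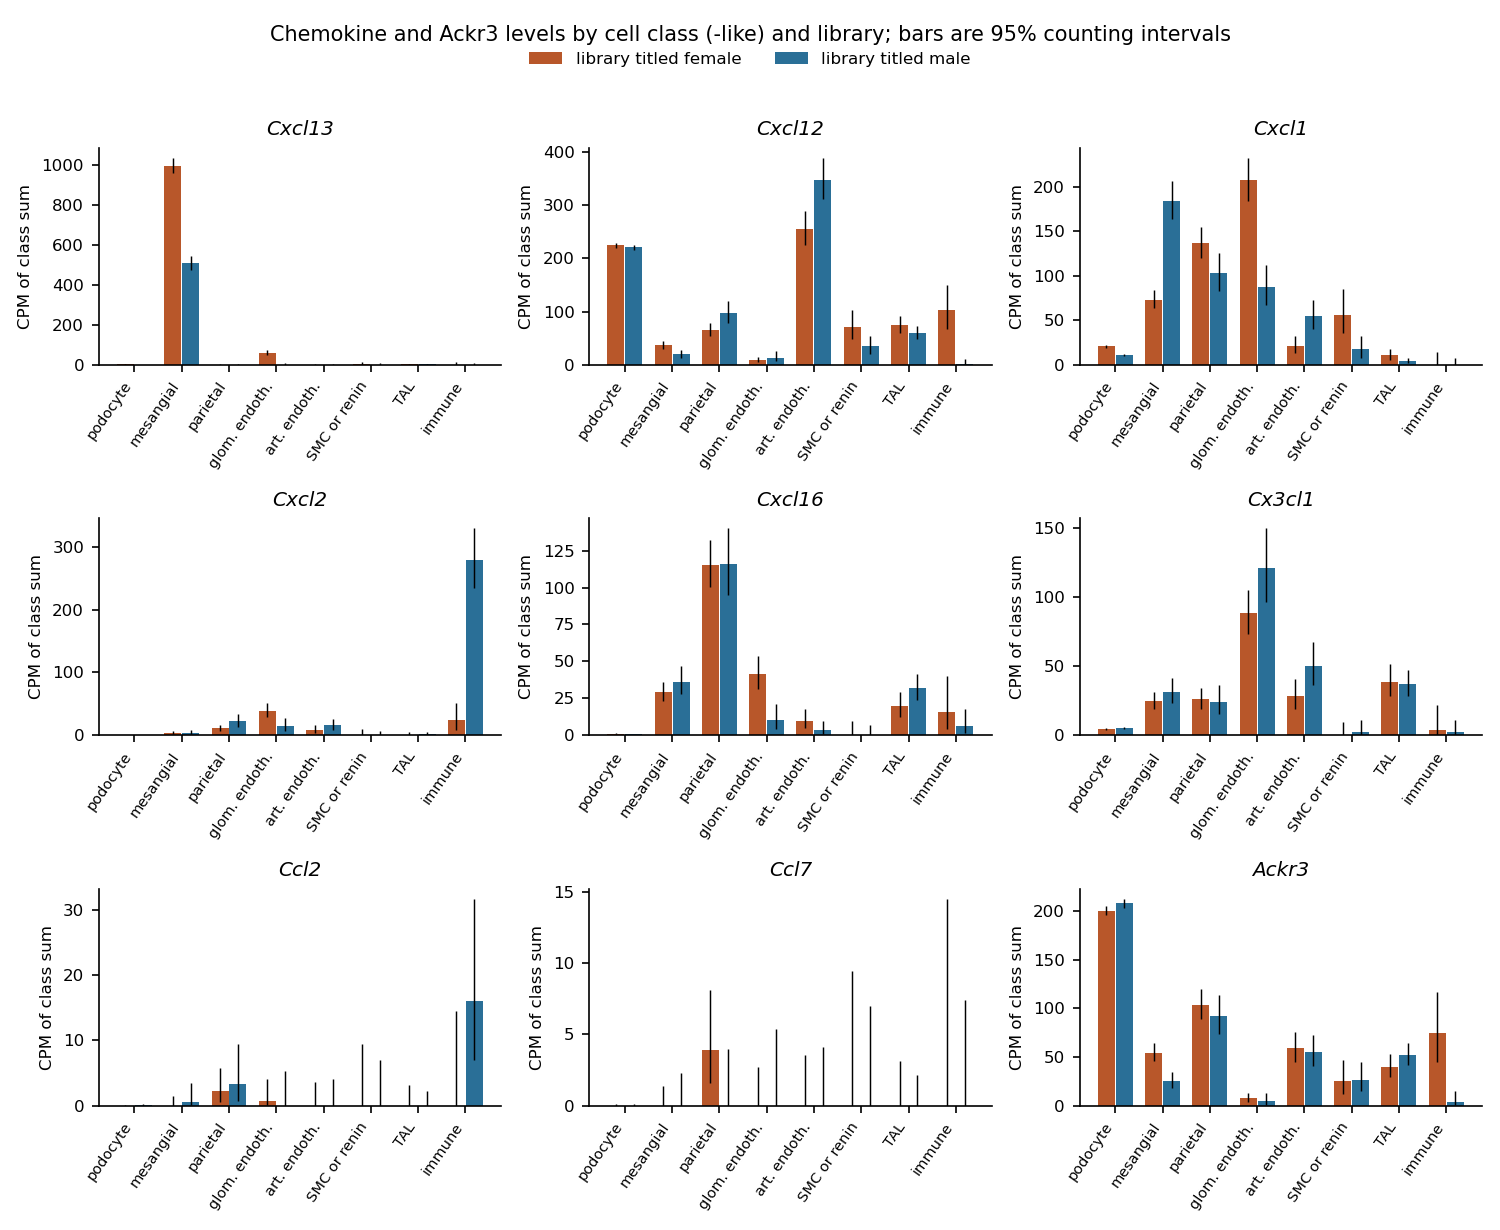
Level of each gene in 8 cell classes, in CPM over the summed UMIs of the class (linear axes from 0), with the library titled female left of the library titled male and 95% counting intervals as bars. Cxcl13 stands in mesangial-like cells, Cxcl12 in podocyte-like and arterial endothelial-like cells, Ackr3 in podocyte-like cells, Cxcl16 in parietal epithelial-like cells and Cx3cl1 in glomerular endothelial-like cells of both libraries.

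Cell sources differed from gene to gene, as the plot of levels by class shows. Over classes of 20 or more cells in each library, 7 of the 9 genes reached 20 CPM in some class of each library with at least 30 UMIs there, and Ccl2 and Ccl7 did not. Of these 7, 5 had the same highest class in both libraries (Cxcl13, Cxcl12, Ackr3, Cxcl16 and Cx3cl1), against 73.5% of all 7067 genes that passed the same limits. The highest class was at least 2-fold above the next in both libraries for 3 of 7 (Cxcl13, Cxcl16 and Cx3cl1), against 18.3% of all genes. Without mixed cells the immune-like class of the library titled female fell to 17 cells and was left out, and Cxcl2 no longer passed the limits. The same 5 genes then had 1 highest class, 5 of 6 against 73.7%, and the 2-fold rule held for 2 of 6 (Cxcl13 and Cxcl16) against 18.1%. Cxcl1 had different highest classes in the libraries under both settings.

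Cxcl13, a homeostatic chemokine that attracts B cells through Cxcr5, was a transcript of mesangial-like cells, the contractile support cells between glomerular capillaries. It reached 997 CPM (2644 UMIs; 960 to 1036) in mesangial-like cells of the library titled female and 507 CPM (825 UMIs; 473 to 543) in those of the library titled male. Mesangial-like cells held 95.4% and 90.5% of all Cxcl13 UMIs in the libraries. In podocyte-like cells the level was 0.370 and 0.0562 CPM (16 and 2 UMIs).
Parietal epithelial-like, arterial endothelial-like and immune-like cells held 0 UMIs in both libraries. Against the floor of 3 UMIs over the class, the mesangial-like level was at least 593-fold higher than the parietal epithelial-like level in the library titled female and at least 156-fold higher in the library titled male. The corresponding bounds over arterial endothelial-like cells were at least 343-fold and at least 152-fold.

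Of the named classes outside the mesangium, 1 stood above 10 CPM in the library titled female, the glomerular endothelial-like cells, at 57.5 CPM (79 UMIs). Of these UMIs, 37, 30 and 11 lay in 3 cells that also held 51, 121 and 85 UMIs of Itga8, an integrin gene that defines mesangial cells. Without mixed cells 1 UMI was left (0.989 CPM), and the same class of the library titled male held 0. The mesangial-like level was 17.4-fold above this next class in the library titled female (13.9 to 22.0). The next class in the library titled male was the thick ascending limb-like cells, with 2 UMIs.

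Cxcl13 was uneven among mesangial-like cells. At least 1 UMI was found in 51.9% of them (125 of 241) in the library titled female and in 36.0% (63 of 175) in the library titled male. With each cell thinned to 3000 UMIs, which left out none of them, the shares were 39.0% and 27.4%. In podocyte-like cells, which should lack the gene, the unthinned shares were 0.463% and 0.0622% and the thinned ones 0.116% and 0%, with median depths of 10795 and 9863 UMIs in podocyte-like cells and 8564 and 7369 UMIs in mesangial-like cells.
The tenth of mesangial-like cells with the most Cxcl13 held 73.5% and 71.4% of its UMIs there. The highest cell held 248 UMIs in the library titled female and 71 in the library titled male, and the median among cells with any was 7 and 6 UMIs. The 2 highest cells of each library held 15.2% and 15.6% of the UMIs, and without them the levels were 854 and 436 CPM.

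**Figure D2:**
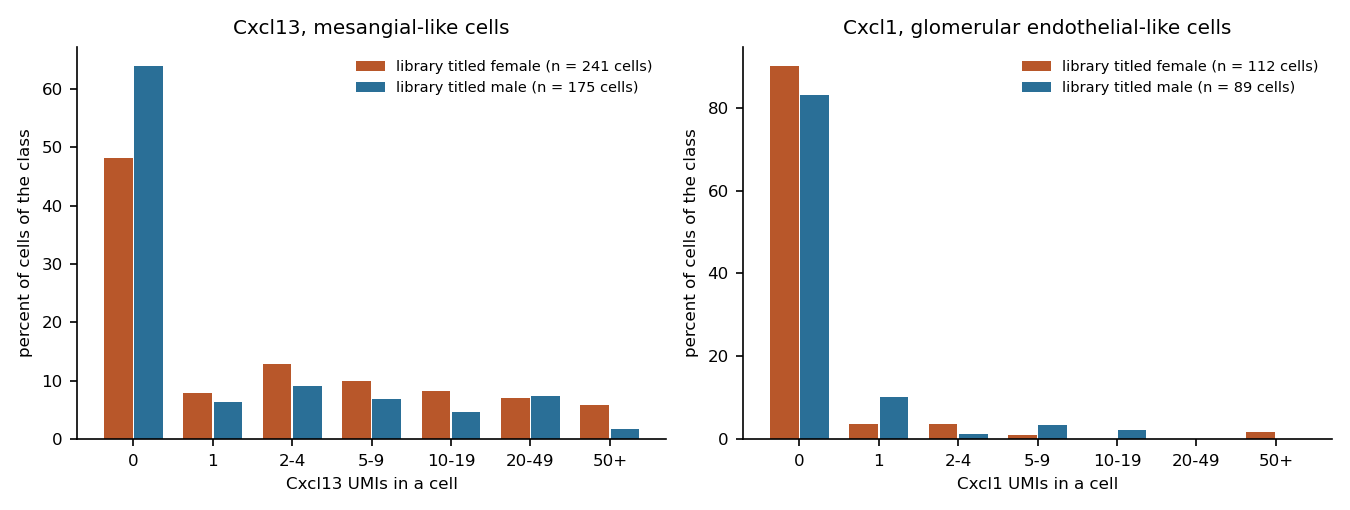
UMIs per cell of Cxcl13 in mesangial-like cells (left) and of Cxcl1 in glomerular endothelial-like cells (right), as the percent of the cells of the class in each library. Cxcl13 UMIs spread over many cells up to 248 and 71 UMIs in the libraries titled female and male, whereas 2 cells of the library titled female hold 91.9% of its glomerular endothelial-like Cxcl1.

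Cxcl12, the ligand of Cxcr4 and Ackr3 that holds progenitor cells and lymphocytes in place, was found in podocyte-like cells at nearly the same level in both libraries, 225 CPM (9723 UMIs; 220 to 229) in the library titled female and 221 CPM (7854 UMIs; 216 to 226) in the library titled male. The ratio between libraries was 1.02 (0.987 to 1.05). Podocyte-like cells held 80.3% and 82.4% of all Cxcl12 UMIs, and made up 3458 of 4909 and 3215 of 4442 kept cells. At least 1 UMI was found in 75.5% and 73.7% of podocyte-like cells, or 42.0% and 41.4% after thinning, against 5.36% and 4.49% of glomerular endothelial-like cells, or 0.893% and 3.37% after thinning, whose median depths were 7932 and 6417 UMIs. Over 7 of the 8 podocyte-like clusters the level ranged between 181 and 276 CPM in the library titled female and between 187 and 239 CPM in the library titled male.

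Podocyte-like cells were not the class with the highest Cxcl12 level. Arterial endothelial-like cells stood at 256 CPM (264 UMIs; 226 to 289) in the library titled female and at 349 CPM (313 UMIs; 311 to 390) in the library titled male. The interval overlapped that of podocyte-like cells in the library titled female and did not in the library titled male. The ratio to podocyte-like cells was 1.14 (1.005 to 1.29) in the library titled female and 1.58 (1.41 to 1.77) in the library titled male. Podocyte RNA was present in this class: Clic3 stood at 24.3% and 27.8% of its podocyte-like level. Without mixed cells, which Clic3 helps to define, it was at 1.14% and 0.570% of that level, while Cxcl12 stood at 315 and 473 CPM, 140% and 214% of its podocyte-like level. The level rested in part on few cells: without the 2 cells with the most UMIs of the gene it was 214 and 277 CPM, which turned the order of the 2 classes in the library titled female. Leaving out the highest cells lowers a class of 84 or 83 cells more than a class of 3458 or 3215. This turn therefore shows the spread over cells and does not rank the classes.

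Parietal epithelial-like cells, which line Bowman's capsule, came next in the library titled male, at 97.6 CPM, and stood at 65.0 CPM in the library titled female. Without mixed cells they were at 57.4 and 92.6 CPM, 25.6% and 41.9% of the podocyte-like level, with Clic3 at 0.405% and 0.455% of its own. In mesangial-like cells, by contrast, Cxcl12 and podocyte RNA went together: Cxcl12 stood at 37.0 and 19.1 CPM with all cells and at 5.46 and 7.29 CPM without mixed cells, where Clic3 was at 0.220% and 0.427% of its podocyte-like level. Thick ascending limb-like cells, a tubule segment carried along with the glomeruli, stood at 75.0 and 59.2 CPM with all cells and at 25.4 and 29.2 CPM without mixed cells. Glomerular endothelial-like cells were low, with 11 and 9 UMIs. The 102 CPM of immune-like cells in the library titled female (26 UMIs in 5 cells) lay wholly in mixed cells, and without these cells the immune-like class held 0 UMIs in both libraries.

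Ackr3, an atypical receptor that takes up and degrades Cxcl12 without G protein signalling, was highest under the reported clustering in the podocyte-like cells that also held its ligand. It stood at 200 CPM (8680 UMIs; 196 to 205) in the library titled female and at 208 CPM (7386 UMIs; 203 to 212) in the library titled male, a ratio of 0.965 (0.936 to 0.996). Podocyte-like cells, 3458 of 4909 and 3215 of 4442 kept cells, held 81.7% and 86.0% of its UMIs. At least 1 UMI was found in 65.1% and 65.2% of podocyte-like cells (38.8% and 39.9% after thinning). In thinned podocyte-like cells with Ackr3, 44.4% and 42.5% also held Cxcl12, against 40.5% and 40.6% of those without.
Parietal epithelial-like cells were next, at 104 and 92.1 CPM, and at 110 and 92.6 CPM without mixed cells. Arterial endothelial-like cells stood at 59.1 and 54.6 CPM with all cells and held 0 UMIs and 1 UMI without mixed cells, the opposite of what Cxcl12 did in the same class. Mesangial-like cells stood at 54.3 and 25.2 CPM with all cells, and at 19.4 and 19.2 CPM without mixed cells.

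**Figure D3:**
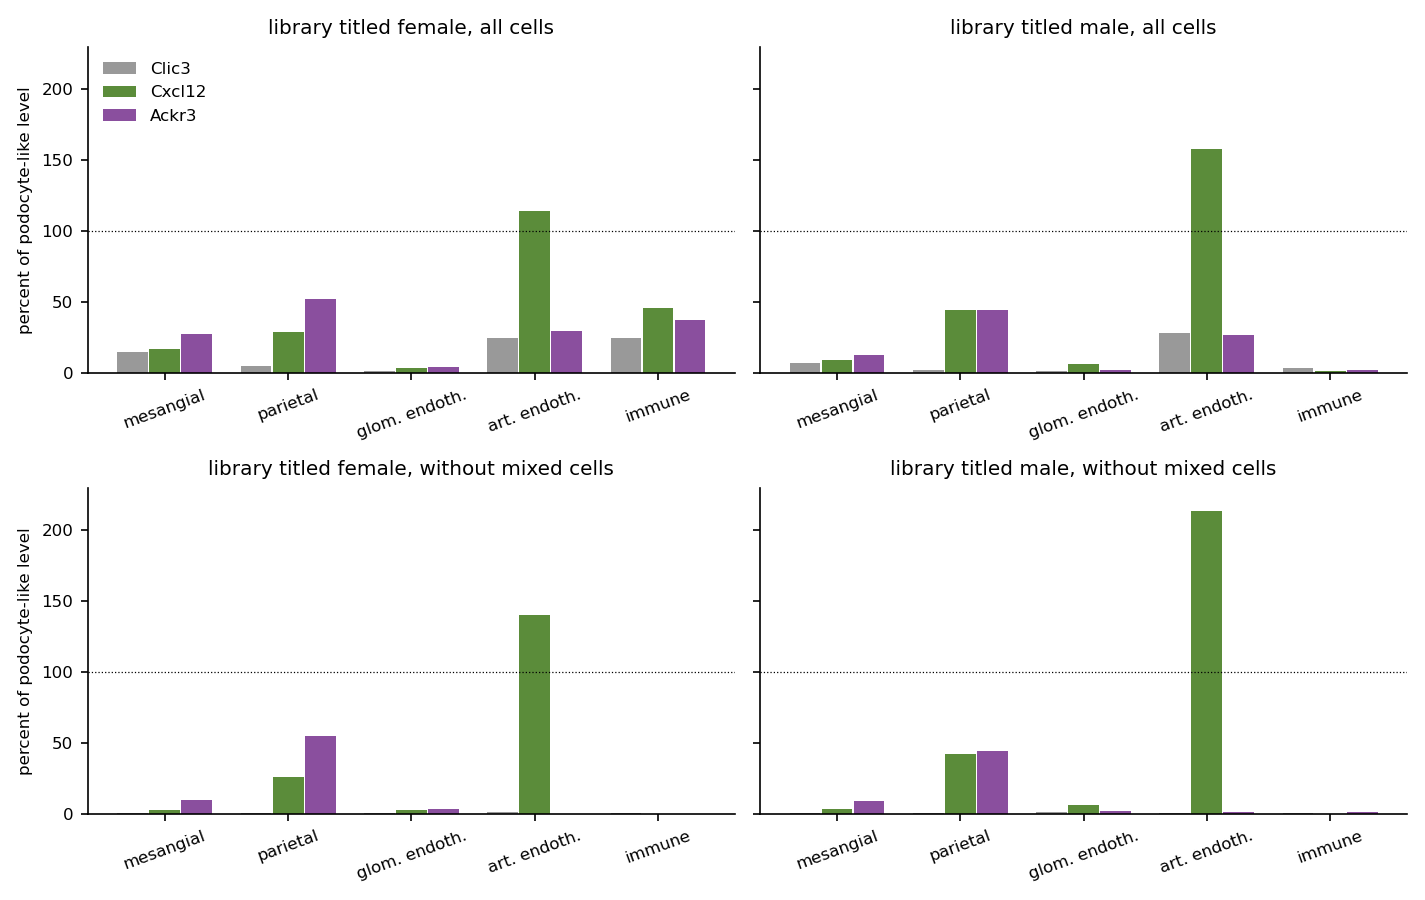
Clic3, Cxcl12 and Ackr3 in 5 other classes as percent of their level in podocyte-like cells (dotted line at 100%), for the library titled female (left) and the library titled male (right), with all cells (top) and without mixed cells (bottom). Clic3 helps to define mixed cells, so that its low bars without them (1.14% or less) follow from the definition, while Cxcl12 stays above 100% in arterial endothelial-like cells, and both Cxcl12 and Ackr3 stay between 25.6% and 54.6% in parietal epithelial-like cells.

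The highest Cxcl12 and Ackr3 levels among podocyte-like clusters belonged to a cluster of 152 and 135 cells led by Cst12, Igfbp6 and Col6a1. Cxcl12 stood there at 461 CPM (433 to 490) in the library titled female and 347 CPM (319 to 376) in the library titled male, outside the range of the other 7 podocyte-like clusters. Ackr3 stood at 311 and 301 CPM, against ranges of 101 to 271 and 151 to 275 CPM in the other clusters. Cxcl1, Cxcl16 and Cx3cl1 were also above those ranges there, with Cxcl16 at 12.6 and 6.02 CPM. The cluster held 12 of 12 podocyte markers, but Clic3 was at 36.5% and 36.0% and Ptpro at 61.0% and 64.1% of the level in the other podocyte-like clusters, and the 12 markers together spanned 34.7% to 95.2% in the library titled female and 32.4% to 99.6% in the library titled male. Of 9 parietal markers, 5 were at least 2-fold above the other podocyte-like cells in both libraries (Cldn1, Akap12, Pax2, Pax8 and Ncam1). Cldn1, a tight junction gene and the one nearest to its parietal level, was at 128 and 102 CPM, against 14.6 and 14.0 CPM in the other podocyte-like cells and 229 and 216 CPM in parietal epithelial-like cells. The keratin gene Krt8 was nearly absent, at 0.901 and 0 CPM, against 391 and 120 CPM in parietal epithelial-like cells, and Krt18 and Sult1d1 were likewise at 2.41 CPM or less. Its class may depend on the clustering, although how many of its own cells changed class was not counted. Under 3 of the other clusterings the parietal epithelial-like class grew from 73 to between 174 and 225 cells in the library titled female. Cxcl12 was then higher in parietal epithelial-like than in podocyte-like cells. That class then also had the highest Ackr3 level, at 204 to 218 CPM, in the library titled female, and at a clustering resolution of 0.5 in the library titled male as well, at 230 CPM.

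Cxcl16, a membrane-anchored chemokine that binds Cxcr6 on T cells, was highest in parietal epithelial-like cells. Its level was 115 CPM (206 UMIs; 100 to 132) in the library titled female and 116 CPM (107 UMIs; 95.0 to 140) in the library titled male, and 117 CPM in both without mixed cells. Under the 3 clusterings with a larger parietal epithelial-like class it was between 58.5 and 67.5 CPM in the library titled female and between 45.6 and 63.9 CPM in the library titled male, and that class was still the highest. At least 1 UMI was found in 67.1% and 69.4% of these cells, or 32.9% and 22.4% after thinning, against 1.01% and 0.715% of podocyte-like cells, or 0.405% and 0.218% after thinning. Parietal epithelial-like cells were the deeper class, with median depths of 17094 and 14537 UMIs.
Mesangial-like cells stood at 29.0 and 36.3 CPM, with overlapping intervals (22.9 to 36.3 and 27.6 to 46.8). Glomerular endothelial-like cells differed between libraries, at 41.5 CPM (57 UMIs in 36 cells) in the library titled female and 10.2 CPM (7 UMIs in 6 cells) in the library titled male, a ratio of 4.07 (1.85 to 10.6) and of 4.18 without mixed cells. Thick ascending limb-like cells stood at 19.6 and 31.6 CPM (23 and 54 UMIs), and at 26.8 and 40.7 CPM without mixed cells. Without mixed cells they came next after parietal epithelial-like cells in the library titled male. Arterial endothelial-like cells held 10 and 3 UMIs and immune-like cells 4 and 3 UMIs.

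Cx3cl1, or fractalkine, is the membrane-anchored ligand of Cx3cr1 on monocytes and resident macrophages. It was highest in glomerular endothelial-like cells, at 88.0 CPM (121 UMIs; 73.0 to 105) in the library titled female and 121 CPM (83 UMIs; 96.2 to 150) in the library titled male. The ratio between libraries was 0.729 (0.547 to 0.976), and 0.721 without mixed cells. At least 1 UMI was found in 47.3% and 32.6% of these cells, or 19.6% and 22.5% after thinning, against 5.03% and 5.23% of podocyte-like cells, or 1.33% and 1.52% after thinning. Arterial endothelial-like cells stood at 28.1 and 50.2 CPM, mesangial-like cells at 24.5 and 31.4 CPM and parietal epithelial-like cells at 25.8 and 23.8 CPM, and the intervals of these 3 classes overlapped in the library titled female. The podocyte-like level was 4.48 and 5.20 CPM. As the largest class, podocyte-like cells still held 36.1% and 38.6% of all Cx3cl1 UMIs. Glomerular endothelial-like cells held 22.5% and 17.3%. Thick ascending limb-like cells stood at 38.4 and 36.9 CPM, and at 52.2 and 47.8 CPM without mixed cells. They were then the next class in both libraries. The glomerular endothelial-like level was 1.67-fold above theirs (1.13 to 2.50) in the library titled female and 2.53-fold (1.77 to 3.63) in the library titled male.

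Cxcl1, which draws neutrophils through Cxcr2, was spread over several classes, and its order of classes differed between the libraries. The highest level in the library titled female was that of glomerular endothelial-like cells, at 207 CPM (285 UMIs). That class stood at 87.3 CPM (60 UMIs) in the library titled male. Of the 285 UMIs, 91.9% lay in 2 cells, the highest of which held 141, and without mixed cells 20 UMIs were left (19.8 CPM), so that the direction between libraries turned, with a ratio of 2.38 with all cells and 0.227 (0.129 to 0.382) without mixed cells.
In mesangial-like cells Cxcl1 stood at 73.2 CPM (194 UMIs; 63.2 to 84.2) in the library titled female and at 185 CPM (300 UMIs; 164 to 207) in the library titled male, a ratio of 0.397 (0.329 to 0.477), and of 0.425 without mixed cells. The highest cells held 17 and 49 UMIs. In parietal epithelial-like cells it stood at 137 and 103 CPM, with intervals of 120 to 155 and 83.3 to 126. Arterial endothelial-like cells stood at 21.3 and 54.6 CPM, and at 15.7 and 65.5 CPM without mixed cells.
In podocyte-like cells the level was 20.5 CPM (887 UMIs) in the library titled female and 11.0 CPM (391 UMIs) in the library titled male, a ratio of 1.86 (1.65 to 2.10). Despite this low level, the size of the class gave it 49.6% and 38.5% of all Cxcl1 UMIs. Immune-like cells held 0 UMIs of Cxcl1 in both libraries.

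Cxcl1 levels ran with those of immediate early and stress genes, a list of 20 genes such as Fos, Jun and Btg2 that are known to be induced while tissue is dissociated. The cells of each class were split in each library into tertiles (equal groups, from lowest to highest) by the share of their UMIs from this list, whose medians in the lowest, middle and highest tertile of podocyte-like cells were 0.691%, 1.87% and 5.25% in the library titled female and 0.521%, 1.26% and 2.96% in the library titled male. Cxcl1 stood at 8.58, 14.0 and 37.3 CPM over these tertiles in the library titled female and at 5.92, 8.99 and 18.0 CPM in the library titled male. The highest tertile was thus 4.35-fold above the lowest (3.56 to 5.35) in the library titled female and 3.04-fold (2.31 to 4.04) in the library titled male.
In podocyte-like cells 1 of 3 measured members, Cxcl1, was at least 1.5-fold higher in the highest tertile in both libraries, as were 2.65% of 7924 genes, and 0 of 3 were lower, as were 0.353%. Among the podocyte-like clusters other than the Cst12-led one described above, Cxcl1 was highest, at 37.2 and 22.4 CPM, in the cluster led by Gm26532, Tnfaip3 and Ifrd1, with 965 and 375 cells, whose leading genes also held the early genes Atf3, Egr2 and Nr4a1. Cxcl12 was at 194 CPM in the highest and 258 CPM in the lowest tertile in the library titled female, and at 207 and 225 CPM in the library titled male.

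The same order was seen outside podocytes. In mesangial-like cells without mixed cells, Cxcl1 stood at 193 CPM in the highest and 13.9 CPM in the lowest tertile in the library titled female, and at 527 and 3.86 CPM (272 and 2 UMIs) in the library titled male. In parietal epithelial-like cells without mixed cells it stood at 389 CPM in the highest and 8.72 CPM in the lowest tertile, and at 230 and 37.0 CPM in the library titled male. With all cells, the highest and lowest tertiles stood at 140 and 13.4 CPM and, in the library titled male, at 489 and 3.72 CPM in mesangial-like cells, and at 300 and 12.7 CPM and at 230 and 35.6 CPM in parietal epithelial-like cells. Of the members measured without mixed cells, 1 of 3 in mesangial-like cells and 1 of 4 in parietal epithelial-like cells was higher in the highest tertile in both libraries, in each case Cxcl1, against 1.94% and 2.79% of all genes. Glomerular endothelial-like cells without mixed cells had too few UMIs for this count, with 14 and 2 UMIs in the highest and lowest tertile of the library titled female and 46 and 2 UMIs in the library titled male. The same held for arterial endothelial-like cells, with 4 and 2 UMIs and, in the library titled male, 16 and 2 UMIs.
Cxcl13 did not take this order: without mixed cells its mesangial-like level was 994 CPM in the highest and 1391 CPM in the lowest tertile in the library titled female, and 597 and 713 CPM in the library titled male. With all cells it was 592 and 1221 CPM, and 517 and 704 CPM in the library titled male. Cxcl12 in arterial endothelial-like cells was lower in the highest tertile, at 270 CPM against 459 CPM in the library titled female and 351 CPM against 763 CPM in the library titled male without mixed cells, where 3.07% of all genes were at least 1.5-fold lower in both libraries. Podocyte-like cells of the library titled female also had the higher early and stress gene levels, with 11 of 19 genes at least 1.5-fold higher than in the library titled male and 0 lower, against 1.24% and 0.420% of all genes. In mesangial-like cells 0 of 18 were higher and 2 lower, against 5.48% and 4.99%. In parietal epithelial-like cells 1 of 18 was higher and 1 lower, against 7.71% and 3.23%. In glomerular endothelial-like cells 0 of 19 were higher and 2 lower, against 13.4% and 3.65%. Arterial endothelial-like cells had 0 and 0 of 19, against 5.11% and 5.45%. The Cxcl1 ratios of these classes, in the same order, were 0.397, 1.33, 2.38 (0.227 without mixed cells) and 0.391. The part of early and stress genes in the Cxcl1 levels was not tested.

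**Figure D4:**
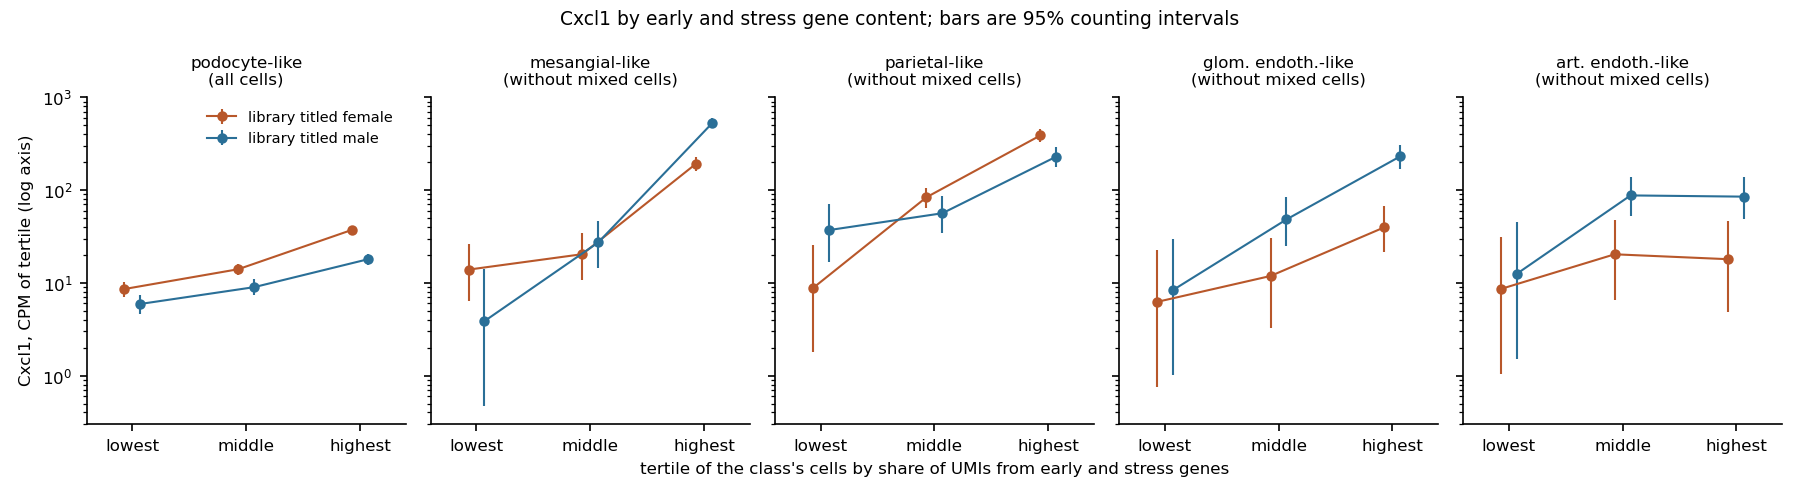
Cxcl1 level (CPM, log axis, 95% counting intervals) in tertiles of the cells of 5 classes, ordered by the share of UMIs from 20 immediate early and stress genes, with the library titled female and the library titled male as separate lines. In every class shown the highest tertile stands above the lowest in both libraries. In the library titled male it is at 18.0 against 5.92 CPM in podocyte-like cells and at 527 against 3.86 CPM in mesangial-like cells. Arterial endothelial-like cells rest on few UMIs, 4 against 2 in the library titled female and 16 against 2 in the library titled male.

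Cxcl2, the neighbour of Cxcl1 and another Cxcr2 ligand, was mainly a transcript of immune-like cells in 1 of the libraries. Its immune-like level was 23.6 CPM (6 UMIs in 3 cells) in the library titled female and 279 CPM (139 UMIs in 8 cells) in the library titled male, and 35.7 and 309 CPM without mixed cells. All of these UMIs were in macrophage or monocyte-like cells, 13 in the library titled female and 26 in the library titled male, and the 2 highest cells of the library titled male held 74.8% of its UMIs. Without those 2 cells its level was 72.4 CPM. Glomerular endothelial-like cells stood at 38.6 CPM (53 UMIs) in the library titled female and 14.5 CPM (10 UMIs) in the library titled male, and at 12.9 and 14.5 CPM without mixed cells. In podocyte-like cells, where Cxcl1 was readily counted, Cxcl2 had 14 and 3 UMIs (0.323 and 0.0844 CPM).
The monocyte chemokines Ccl2 and Ccl7, ligands of Ccr2, were close to absent at this depth. Ccl2 had 5 UMIs in the whole library titled female and 20 in the whole library titled male, of which 4 and 3 were in parietal epithelial-like cells and 0 and 8 in immune-like cells. Ccl7 had 7 UMIs in the library titled female, all in parietal epithelial-like cells, and 0 in the library titled male. No ratio is given for these 2 genes.

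Differences of the members between libraries were read against all genes of the same class, counting a gene when its higher library reached 20 CPM and 30 UMIs. In podocyte-like cells 1 of 3 members (Cxcl1) was at least 1.5-fold higher in the library titled female, as were 1.24% of 6194 genes, and 0 of 3 were lower, as were 0.420%. In mesangial-like cells 3 of 6 were higher (Cxcl13, Cxcl12 and Ackr3) against 5.48% of genes, and 1 of 6 was lower (Cxcl1) against 4.99%. Without mixed cells Cxcl13 alone was higher, 1 of 4 against 3.37%, and Cxcl1 alone lower, 1 of 4 against 5.05%. The Cxcl13 ratio was 1.97 (1.82 to 2.13) with all cells and 2.30 (2.12 to 2.49) without mixed cells, and that of Ackr3 was 1.01 without them, where it was under 20 CPM.
In glomerular endothelial-like cells 4 of 5 members were higher (Cxcl1, Cxcl2, Cxcl13 and Cxcl16) against 13.4% of genes and 0 were lower against 3.65%, but without mixed cells 1 of 3 was higher (Cxcl16) against 8.53% and 1 of 3 lower (Cxcl1) against 5.41%. In parietal epithelial-like cells 1 of 5, Cxcl12, was lower (ratio 0.666, at the limit itself; 0.502 to 0.888) against 3.23% of genes, and 0 were higher against 7.71%. In arterial endothelial-like cells 2 of 4 were lower with all cells (Cxcl1 and Cx3cl1) against 5.45%, and 2 of 2 without mixed cells (Cxcl1 and Cxcl12) against 7.02%. None was higher there, against 5.11% and 6.72%. The Cxcl12 ratio of arterial endothelial-like cells, 0.734 with all cells and 0.667 without mixed cells, was also at the limit. In immune-like cells 1 of 1, Cxcl2, was lower against 21.4%. It passed the limits only through the library titled male (139 against 6 UMIs), where the 2 highest cells held 77 and 27 UMIs. No direction is read from this call. With single libraries, differences between the mice, their cells and the handling of the libraries cannot be told apart.

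Genes with a similar pattern were ranked by Pearson's r of log2(CPM + 10) over 10 points among 5629 genes. The points were the podocyte-like, mesangial-like, glomerular endothelial-like, arterial endothelial-like and thick ascending limb-like class sums of both libraries, each of 50 or more cells, so that the parietal epithelial-like and immune-like sources of Cxcl16 and Cxcl2 were not among them. The points share libraries and mixed cells, and r is a description. Nearest to Cxcl13 were Steap4, Col5a1 and Ndufa4l2 (r of 0.999, 0.997 and 0.997), all highest in mesangial-like cells. Nearest to Cxcl12 were Elmo1, Pogk and Nebl (0.959, 0.955 and 0.955). Nearest to Ackr3 were Mpp5 and Cpq (0.994 and 0.992), both highest in podocyte-like cells, and nearest to Cx3cl1 were Galnt18 and Cnn3 (0.973 each), both highest in glomerular endothelial-like cells. For Cxcl1 they were Arid4a, Nudcd3 and Rasal2 (0.985, 0.962 and 0.958), for Cxcl2 Dip2b, Ctdnep1 and Prdm1 (0.962, 0.958 and 0.957), and for Cxcl16 Eif4ebp2, Anxa6 and Fam107b (0.937, 0.929 and 0.921). Arid4a, Nudcd3 and the 3 genes nearest to Cxcl2 were highest in glomerular endothelial-like cells. That class of the library titled female fell without mixed cells from 207 to 19.8 CPM of Cxcl1 and from 38.6 to 12.9 CPM of Cxcl2. The ranking used all cells, so these matches may rest on mixed cells.

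Of 18 signalling chemokine receptor genes, 2 reached 20 CPM and 30 UMIs in immune-like cells of both libraries, Ccr2 (118 and 263 CPM) and Ccr7 (122 and 199 CPM), and 0 did in podocyte-like, mesangial-like, parietal epithelial-like, glomerular endothelial-like or arterial endothelial-like cells. Cxcr4, the signalling receptor for Cxcl12, stood at 82.6 and 98.4 CPM in immune-like cells and at 0.727 and 1.45 CPM (1 UMI each) in glomerular endothelial-like cells. Cx3cr1, the receptor for Cx3cl1, stood at 19.7 and 60.2 CPM in immune-like cells. Of the 4 receptors measurable there in either library, 0 were higher and 3 lower in the library titled female by at least 1.5-fold, against 11.8% and 21.4% of all genes. A gene was counted through its higher library, and 30 UMIs are easier to reach in the library titled male (58 against 22 immune-like cells). The direction of this split therefore follows in part from the limit. Of 4 other atypical receptor genes, 2 reached 20 CPM in glomerular endothelial-like cells: Ccrl2, which presents chemerin, stood at 162 and 182 CPM in glomerular endothelial-like cells, and Ackr2, which scavenges inflammatory CC chemokines, at 31.3 and 23.3 CPM.

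Enzymes that act on these chemokines differed in how widely they were found. Adam10 and Adam17, the metalloproteases that shed Cx3cl1 and Cxcl16, were measured in every class, with Adam10 highest in arterial endothelial-like cells at 191 and 208 CPM, followed by glomerular endothelial-like cells at 162 and 183 CPM. Adam17 stood between 34.1 and 93.1 CPM over all classes and libraries. Dpp4, a surface peptidase that clips and inactivates Cxcl12, stood at 1455 and 1683 CPM in podocyte-like cells, and Mmp2, another enzyme that cleaves Cxcl12, at 328 and 271 CPM in mesangial-like cells. Of the 3 of these 4 genes that could be measured in podocyte-like cells, 0 differed by 1.5-fold between libraries.
Among NF-kappaB feedback and cytokine genes, 4 of 9 measured in podocyte-like cells were at least 1.5-fold higher and 0 lower in the library titled female, against 1.24% and 0.420% of all genes. Nfkbia, the inhibitor that NF-kappaB induces against itself, stood there at 987 and 490 CPM, and Tnfaip3 at 95.1 and 48.7 CPM. In mesangial-like cells 0 of 13 were higher and 2 of 13 lower, against 5.48% and 4.99% of all genes. Of 9 genes of lymphoid stromal organisation, 4 could be measured in mesangial-like cells, and 0 differed there by 1.5-fold between libraries. Ltbr, the lymphotoxin beta receptor through which Cxcl13 is induced in lymphoid stroma, stood at 69.8 and 60.9 CPM in mesangial-like cells and at 90.2 and 66.9 CPM in glomerular endothelial-like cells.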

How the data were processed

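Whole-cell suspensions from glomeruli were run on the 10x Chromium platform with libraries read from the 3' end, per the labels' protocols. The deposited values are raw UMI counts per gene and cell, which the authors made with Cell Ranger 6.1.2 and STAR 2.7.5a on mm10, per the submitters' processing notes. The sources used here do not say whether strand was used in counting.

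Cells with over 20% mitochondrial UMIs (283 and 504 barcodes in the libraries titled female and male) or with under 500 genes (112 and 145) were removed. Scanpy 1.11.5 took 2000 variable genes, without the 9 members, and 30 components. Leiden clustering (leidenalg 0.10.2, resolution 1.0, 20 neighbours) gave 19 clusters. Clusters were named by lists of markers, with at least 3 found, and 3 clusters stayed unnamed. Scrublet called 2 and 1 cells as doublets and so has not worked here; no doublet was removed. Counts were summed by library and class and given as CPM, with exact Poisson, Clopper-Pearson or conditional binomial 95% intervals. The ratio script was tested on simulated data. Named genes were the members, the 3 genes of closest pattern to each, and up to 4 genes per list with the highest level; some of these are not reported here. The members and lists were chosen with earlier results of these data known. Alternatives are listed in the closing section.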

Additional observations from a re-analysis of the deposited data

Results flagged for a closer look

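The order of 2 classes turned between the libraries in 3 cases, each without a test of the difference, since every title has 1 library. Cxcl1 in mesangial-like over parietal epithelial-like cells had a ratio of 0.535 (0.441 to 0.649) in the library titled female and of 1.79 (1.42 to 2.28) in the library titled male, and of 0.551 and 1.77 without mixed cells. Cxcl1 in mesangial-like over glomerular endothelial-like cells had a ratio of 0.353 in the library titled female and of 2.11 in the library titled male, but of 4.09 and 2.18 without mixed cells, so that this turn rested on mixed cells of the library titled female. Cxcl12 in mesangial-like over immune-like cells had a ratio of 0.361 in the library titled female and of 9.49 (1.58 to 387) in the library titled male, where the immune-like class held 1 UMI, and no immune-like UMI was left in either library without mixed cells.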

How the results depend on the processing

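Results were recomputed under 10 planned settings of filtering, clustering, naming and counting, a pseudocount of 1 for the log2 ratios, and 4 settings chosen after seeing the data. A value stayed if it lay within the counting interval of the reported value or within 1.5 times a reported count. For the log2 ratios, a fixed band around the reported value was used. Of 541 values so obtained, 418 stayed, 111 moved outside and 12 changed direction.

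Mesangial-like Cxcl13 (997 and 507 CPM in the libraries titled female and male) was at 908 CPM in the library titled female with clusters named by marker score alone, 1206 CPM without the 5% highest Scrublet scores, 1229 CPM without mixed cells, and at 1040 and 451 CPM as a mean over cells. Without the 2 highest cells it was at 854 and 436 CPM, and thinning gave 436 CPM in the library titled male. Its ratio to the next class (17.4 and 433) was 30.4 at resolution 0.5, 404 without high Scrublet scores, 86.6 thinned, 98.9 as a mean over cells, 348 without mixed cells and 84.3 without the 2 highest cells in the library titled female. In the library titled male it was 5872 and 7745 at mitochondrial limits of 10% and 50% and 9507 without mixed cells, where the next class held 2 UMIs.

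Podocyte-like Cxcl12 (225 and 221 CPM) was at 209 and 214 CPM with the members left in the clustering, 201 and 205 CPM at resolution 0.5, and 212 and 215 CPM without the Cst12-led cluster. In the library titled female it was 231 CPM at the 10% mitochondrial limit, 219 CPM named by score and 214 CPM with a minimum of 1000 genes, and in the library titled male 213 CPM thinned. Its ratio to arterial endothelial-like cells (0.877 and 0.633) was 0.693 and 0.486 at resolution 1.5, 0.743 and 0.545 without high Scrublet scores, 0.713 and 0.467 without mixed cells, and 1.04 and 0.796 without the 2 highest cells. In the library titled male it was 0.521 thinned and 0.561 as a mean over cells. At resolution 0.5 no arterial endothelial-like class was found. Its ratio to parietal epithelial-like cells turned below 1, to 0.826 and 0.962 with members left in, 0.706 and 0.805 at resolution 0.5, and 0.840 and 0.983 with a minimum of 1000 genes. Under these 3 settings parietal epithelial-like Cxcl16 (115 and 116 CPM) was at 67.1 and 63.9, 58.5 and 45.6, and 67.5 and 63.9 CPM.

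The number of genes with 1 highest class (5 of 7) was between 4 and 6. The number past 1.5-fold between libraries in their highest class (3 of 7) was 5 after thinning. The glomerular endothelial-like Cxcl1 ratio between libraries turned to 0.142 without high Scrublet scores, 0.306 thinned, 0.427 as a mean over cells, 0.227 without mixed cells and 0.394 without the 2 highest cells. The cause of the other changes was not tested. No paired analysis was possible because each title has 1 library. Depth limits Ccl2 and Ccl7, with at most 20 UMIs in a library, and the small immune-like class.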

Other observations

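Other chemokines were found in the same classes as some of the 9 genes. Cxcl10, an interferon-induced ligand of Cxcr3, stood at 344 and 232 CPM in parietal epithelial-like cells of the libraries titled female and male and at 175 and 189 CPM in glomerular endothelial-like cells. Cxcl9, a ligand of the same receptor, stood at 0 and 62.4 CPM in arterial endothelial-like cells. Immune-like cells held Ccl5 at 1015 and 1739 CPM, Ccl4 at 311 and 221 CPM, Ccl6 at 283 and 414 CPM and Ccl9 at 165 and 235 CPM.

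A small cluster led by cell cycle genes (Cenpf, Prc1 and Top2a; 23 and 11 cells), left unnamed, carried mesangial markers (Itga8 at 439 and 773 CPM) and held Cxcl13 at 96.1 and 434 CPM (28 and 82 UMIs). In the library titled male 1 of its cells held 57 of the 82 UMIs. The same cluster held Cxcl1 at 51.5 and 344 CPM (15 and 65 UMIs), and 64 of the 65 UMIs in the library titled male were in 1 cell. The unnamed clusters with podocyte markers and haemoglobin transcripts (783 and 588 cells) held Cxcl12 at 194 and 200 CPM and Ackr3 at 162 and 165 CPM.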
